A study of Mus musculus with 35 samples.

Results

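MiR-192, miR-194 and miR-215 (mmu-miR-192, mmu-miR-194 and mmu-miR-215 on the array) are 3 microRNAs (miRNAs) of 376 whose primer assays were read on real-time PCR arrays of mouse liver. They were chosen by name, as p53-linked miRNAs other than the miR-34 family, and all 3 had a threshold cycle (Ct) in each of the 35 livers. The mice were females of the transgenic Big Blue line, 6 months old at injection, and every one received a single intraperitoneal injection. The 28 ENU mice received N-ethyl-N-nitrosourea at 120 mg/kg, an ethylating mutagen, and were killed on post-treatment day (PTD) 1, 3, 7 or 15 (5 mice each), or on PTD 30 or 120 (4 mice each). The 7 control mice received dimethylsulfoxide (DMSO), the vehicle, and are labelled day 1 (3 mice) or day 30 (4 mice). The labels name no control for the other PTDs, so the older age of the PTD 120 mice and their treatment cannot be told apart. Each mouse gave 1 piece of whole liver and 1 array, so less of a miRNA per cell and fewer of the cells that hold it cannot be told apart.

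In response to DNA damage the transcription factor p53 raises the transcription of many genes, and miR-34a is its best known miRNA target. MiR-192, miR-194 and miR-215 have been reported as p53 targets in human cells, where they slow the cell cycle and raise p21. In normal liver, intestine and kidney the same miRNAs are made constitutively, so a p53 response there has to be read on top of a basal level. The comparisons below ask whether they changed after ENU and whether they followed miR-34a from animal to animal.

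The mature sequences are shown because they set what the assays can tell apart. They are those of RefSeq on GRCm38.p6, all on the plus strand, with the seed (bases 2 to 8, which pairs with targets) in capitals; the array names give no arm, and the 5p arm was taken for each.
miR-192: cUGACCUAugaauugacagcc
miR-215: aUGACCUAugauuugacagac
miR-194: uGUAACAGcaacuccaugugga
miR-34a: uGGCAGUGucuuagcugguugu
MiR-192 and miR-215 share their seed and 18 of their 21 bases. Counted from the 5′ end of miR-192 to miR-215, the 3 differences are C1A, A12U and C20A. Whether either assay also reads the other miRNA was not tested. Among the RefSeq sequences used here no other mature mouse miRNA had that seed, and none shared the seed of miR-194.

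The 3 miRNAs come from a pair of clusters, each with a copy of miR-194. On chromosome 1 the Mir194-1 hairpin (chr1:185313319-185313385) lies 195 bases before the Mir215 hairpin (chr1:185313581-185313692). On chromosome 19 the Mir194-2 hairpin (chr19:6264643-6264728) lies 115 bases before the Mir192 hairpin (chr19:6264844-6264932). Both copies give the same mature miR-194, so its assay reads the sum of the clusters. MiR-215 and miR-192 each stand for 1 of them, provided that neither assay reads the other miRNA, which was not tested. Mir34a lies on chromosome 4 (chr4:150068454-150068555).

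Levels are given as -ΔCt, the mean Ct of 4 reference RNAs (snoRNA251, snoRNA202, snoRNA142 and U6) minus the Ct of the miRNA; the scale is log2, and 1 unit more is about 2-fold more RNA. Ct ran from 16.6 to 18.4 for miR-192, from 16.04 to 17.98 for miR-194 and from 24.6 to 28.7 for miR-215, and since primer efficiencies may differ, levels of different assays were not set against each other. The tissue label was met by the hepatocyte markers: miR-122, the dominant miRNA of hepatocytes, had a Ct between 13.4 and 18.9, miR-148a between 17.0 and 18.7, and miR-802 between 20.04 and 23.04. The run dates in the file headers fell into 3 separate periods. The first held the day 1 controls, 4 of the 5 mice of PTD 1 and all mice of PTDs 3, 7 and 15; the second held PTDs 30 and 120, the other mouse of PTD 1 and 2 of the day 30 controls; the third held the other 2. The day label of the controls and the run period cannot be told apart, and this split bears on every result below.

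The control livers fell into 2 separate sets. For miR-192, -ΔCt was 3.84, 3.99 and 3.22 in the day 1 controls and 5.16, 5.29, 5.28 and 5.10 in the day 30 controls. For miR-194 it was 4.17, 4.66 and 3.57 against 5.54, 6.02, 5.90 and 5.71. For miR-215 it was -5.62, -5.29 and -6.47 against -3.55, -3.07, -3.07 and -3.67. In none of the 3 did the sets overlap, and the day 30 controls were higher by 1.52 ± 0.26 (SE, limma adjusted p = 0.00722), 1.66 ± 0.31 (adjusted p = 0.00848) and 2.45 ± 0.35 (adjusted p = 0.00707) on the log2 scale. With each control left out in turn the differences ran from 1.29 to 1.68, from 1.38 to 1.92 and from 2.11 to 2.70. With the median Ct of each array as the reference they were 0.62, 0.75 and 1.55 and did not pass. With 3 and 4 mice the exact permutation test gave p = 0.0286 for each, the smallest it allows. How many of all assays had no overlap between the 2 sets was not counted. With the reference RNAs 40.7% of all assays were higher in the day 30 controls, the median assay by 1.00, whereas with the array median 2 of 376 were, and the median assay stood at 0.09. With the reference RNAs they included all 3 hepatocyte markers, 3 of 5 blood and immune markers (miR-150, miR-155 and miR-223), 2 of 2 endothelial, 2 of 3 stromal, 1 of 3 erythroid and 0 of 4 biliary and other epithelial markers. The miR-34a values overlapped (limma adjusted p = 0.434), at -0.86, -1.62 and -0.66 against -0.92, -1.51, -1.79 and -1.29.

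**Figure D1:**
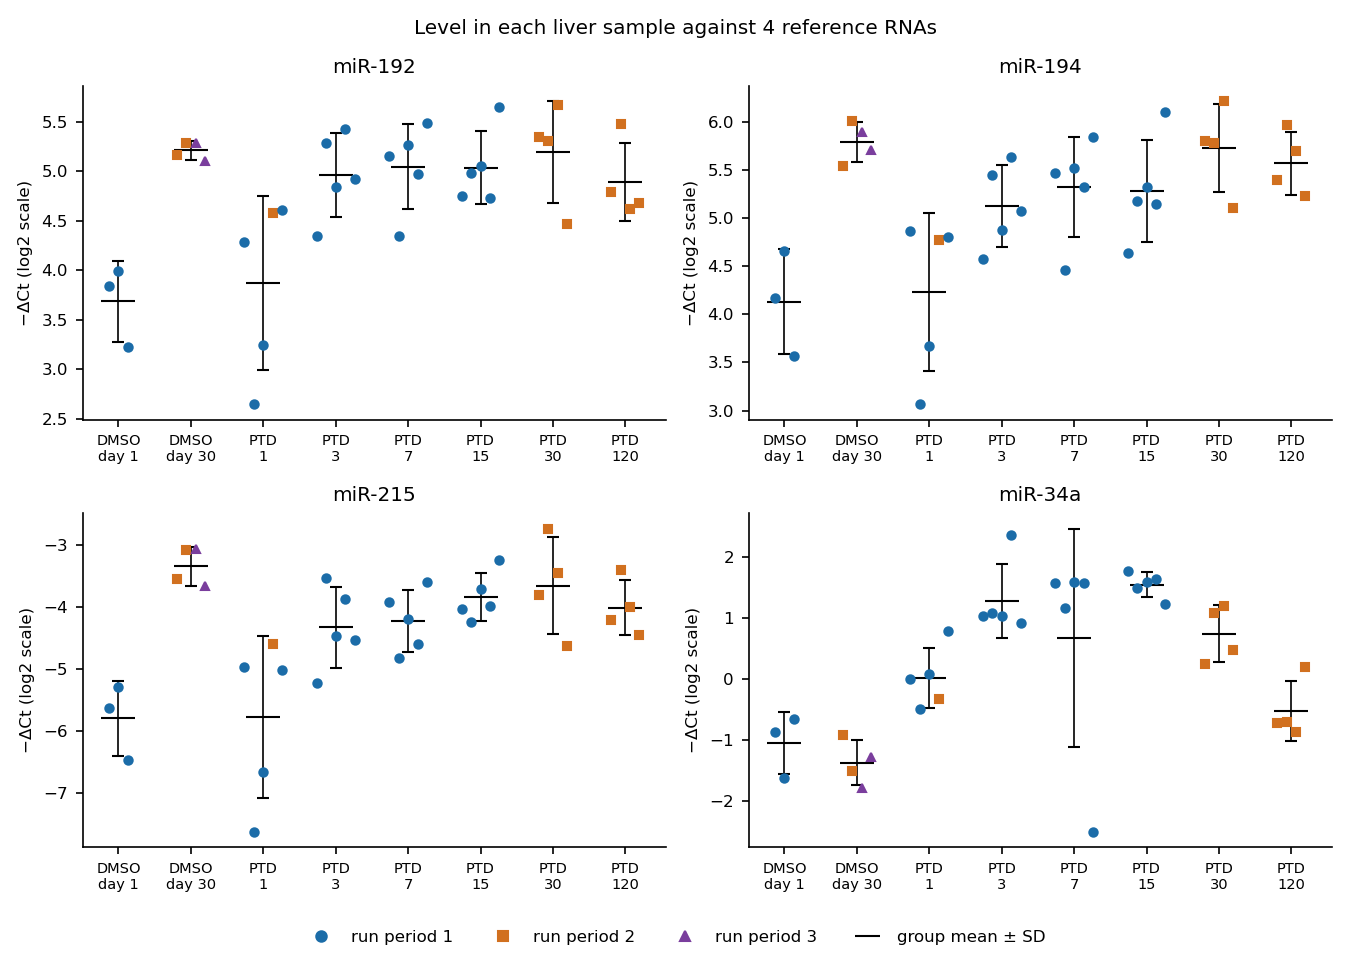
Each point is 1 liver, plotted as -ΔCt (log2 scale) for miR-192, miR-194, miR-215 and miR-34a in the 2 sets of DMSO controls and on 6 post-treatment days (PTDs) after ENU; colour and shape give the run period, and bars are the group mean ± SD. MiR-192, miR-194 and miR-215 are low in the day 1 controls and in part of the PTD 1 mice, whereas miR-34a is low in both control sets and high from PTD 3 to PTD 30 apart from 1 mouse at -2.51.

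MiR-192, from the chromosome 19 cluster, varied most on PTD 1, where -ΔCt was 4.28, 2.65, 3.24, 4.57 and 4.61. It was 4.34, 5.28, 4.84, 5.43 and 4.92 on PTD 3. It was 5.15, 4.35, 5.27, 4.97 and 5.48 on PTD 7. All 10 of these later livers were above each day 1 control, and most were near the day 30 controls. The values were 4.75, 4.98, 5.06, 4.73 and 5.64 on PTD 15. They were 5.34, 5.30, 5.66 and 4.46 on PTD 30. They were 4.78, 5.47, 4.62 and 4.68 on PTD 120. From PTD 3 to PTD 120 the group means stayed between 4.89 and 5.19, closer together than the SDs within those groups (0.37 to 0.51), and PTD 1 was lower, at 3.87 ± 0.88 (SD, n = 5).

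MiR-194, encoded in both clusters, took nearly the same course. On PTD 1 it was 4.87, 3.06, 3.67, 4.77 and 4.80. On PTD 3 it was 4.58, 5.46, 4.88, 5.64 and 5.08. The same 2 mice of PTD 1, replicates 2 and 3, were lowest for miR-192 and miR-194. On PTD 7 it was 5.47, 4.46, 5.52, 5.33 and 5.84. On PTD 15 it was 4.64, 5.18, 5.33, 5.15 and 6.11. Values of 4.58, 4.46 and 4.64 on these 3 days lay below the highest day 1 control, 4.66. On PTD 30 it was 5.81, 5.78, 6.22 and 5.11, and on PTD 120 it was 5.40, 5.97, 5.70 and 5.23. Ordered by mean, PTD 30 (5.73 ± 0.46, SD, n = 4) led and PTD 1 (4.24 ± 0.82, SD, n = 5) came last, and from PTD 30 down to PTD 3 (5.13 ± 0.43, SD, n = 5) neighbours in the order differed by less than the SD within either group.

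MiR-215, the member of the chromosome 1 cluster, had the widest spread. On PTD 1 it was -4.96, -7.62, -6.65, -4.60 and -5.01, again lowest in replicates 2 and 3. On PTD 3 it was -5.22, -3.52, -4.47, -3.87 and -4.52. On PTD 7 it was -3.92, -4.82, -4.19, -4.59 and -3.59. No liver of PTDs 3 and 7 was below the highest day 1 control, -5.29. On PTD 15 it was -4.03, -4.24, -3.71, -3.97 and -3.25. On PTD 30 it was -3.80, -2.74, -3.45 and -4.62, and on PTD 120 it was -4.21, -3.41, -4.00 and -4.44. Around the means of the 8 groups the SD was 0.71 for miR-215, 0.50 for miR-192 and 0.52 for miR-194.

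Against all 7 controls, as the study compared them, no member was a differentially expressed miRNA (DEM, p under 0.01 and more than 2-fold) on any of the 6 PTDs, and none of the 18 adjusted p-values was under 0.05 (limma, 0.453 to 0.970). None of the 18 unadjusted limma p-values was under 0.05 either, the lowest being 0.0678, and the methods' t-test also passed none after adjustment. On PTD 1 all 3 values were below 0, with a log2 fold change of -0.68 for miR-192, -0.84 for miR-194 and -1.37 for miR-215 (exact permutation p = 0.201, 0.140 and 0.112). With each mouse left out in turn they ran from -0.91 to -0.38, from -1.10 to -0.55 and from -1.72 to -0.91. From PTD 3 to PTD 120 all 15 values were above 0, from 0.04 to 0.74. The median of all assays had the same signs, at -0.37 on PTD 1 and 0.02, 0.19, 0.36, 0.54 and 0.46 on the later days. Over all assays the DEM rule was met by 1.33% on PTD 1, 2.13% on PTD 3, 9.84% on PTD 7, 11.4% on PTD 15, 1.6% on PTD 30 and 1.33% on PTD 120. An adjusted p under 0.05 was reached by 0%, 0.798%, 7.45%, 12.2%, 0.532% and 0% on the same days. The 95% intervals of the members were wide: for miR-192 on PTD 7 from -0.40 to 1.38, for miR-194 from -0.73 to 1.22, and for miR-215 from -1.10 to 1.44. A 2-fold rise was within each of them.

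Within the first run period, against the 3 day 1 controls, the result differed. MiR-215 was higher by 1.57 on PTD 7 (95% interval 0.70 to 2.44, limma adjusted p = 0.0131) and by 1.95 on PTD 15 (1.15 to 2.76, adjusted p = 0.00479). MiR-192 was higher by 1.36 (adjusted p = 0.0140) and 1.35 (adjusted p = 0.00997), and miR-194 by 1.19 (adjusted p = 0.0315) and 1.15 (adjusted p = 0.0333). So were 40.7% of all assays on PTD 7 and 47.9% on PTD 15, where the median assay stood at 0.84 and 1.05. On PTD 3 the members were at 1.28, 0.99 and 1.47 (adjusted p = 0.112, 0.168 and 0.112, with 0.266% of assays higher). On PTD 1 miR-192 was at 0.01, miR-194 at -0.03 and miR-215 at -0.27 in the 4 mice of this period. MiR-192 and miR-215 did not overlap the day 1 controls on PTDs 3, 7 and 15, with an exact permutation p of 0.0179 each, the smallest that 5 against 3 allows, whereas miR-194 overlapped them on each of these days (exact permutation p = 0.0536, 0.0357 and 0.0357). How many of all assays stood apart from these controls was not counted. Within the second period, against 2 controls, the members were at -0.03, -0.05 and -0.34 on PTD 30 and at -0.34, -0.20 and -0.70 on PTD 120, and no member passed (0% of assays were higher on PTDs 1, 30 and 120). Taken against the day 30 controls alone, all 18 values were below 0 and none passed (limma, smallest adjusted p = 0.0592). There the median assay stood at -0.80, -0.50, -0.32, -0.18, 0.06 and 0.01 from PTD 1 to PTD 120. Of the 376 assays 1, 4, 24, 21, 2 and 0 passed on those days.

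**Figure D2:**
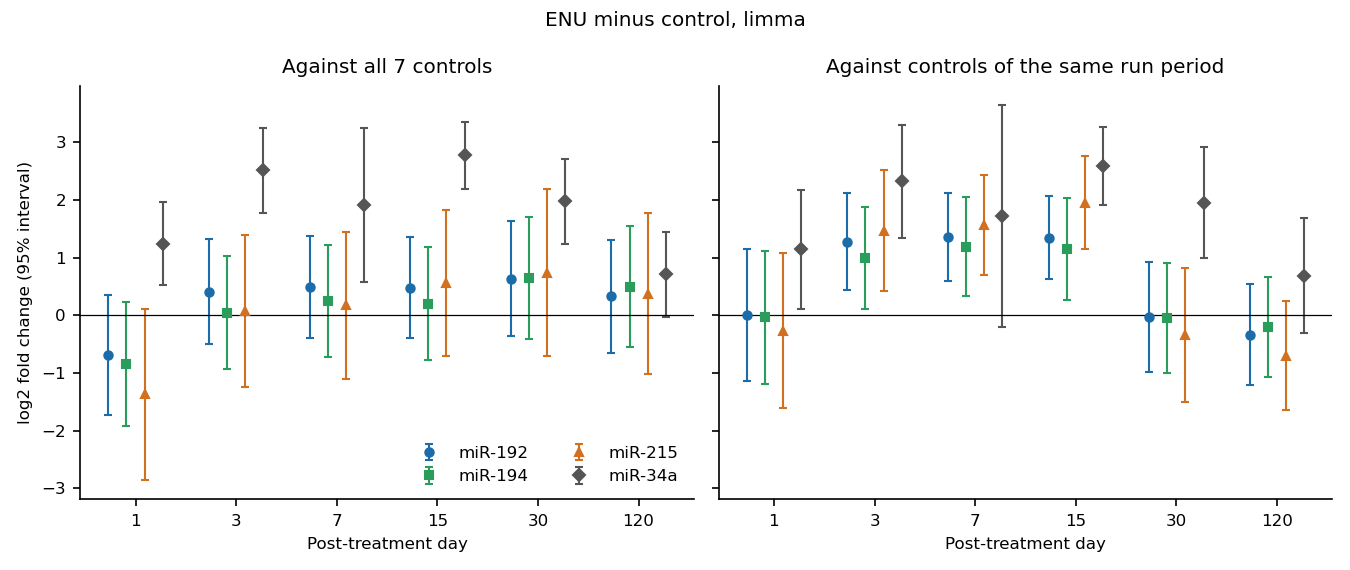
Log2 fold change of ENU over control with its 95% interval (limma) on each post-treatment day for miR-192, miR-194, miR-215 and miR-34a, against all 7 controls on the left and against controls from the same period of array runs on the right. On the left the intervals of the 3 miRNAs include 0 on every day while those of miR-34a do not from PTD 1 to PTD 30; on the right those of the 3 miRNAs lie above 0 on PTDs 3, 7 and 15 and include 0 on PTDs 1, 30 and 120.

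The reference RNAs moved with this difference, as the Ct before normalization shows. Averaged over the 4 reference RNAs, Ct was 21.2 ± 0.14 (SD, n = 3) in the day 1 controls and 22.1 ± 0.26 (SD, n = 4) in the day 30 controls, and it was 22.1 ± 0.42 on PTD 3, 22.3 ± 0.50 on PTD 7 and 22.5 ± 0.59 on PTD 15 (SD, n = 5 each). The Ct of miR-192 was 17.6 ± 0.43 (SD, n = 3) in the day 1 controls, 16.9 ± 0.26 (SD, n = 4) in the day 30 controls, and 17.1 ± 0.19, 17.2 ± 0.16 and 17.5 ± 0.24 (SD, n = 5 each) on PTDs 3, 7 and 15. That of miR-194 was 17.1 ± 0.53, 16.3 ± 0.21, 16.9 ± 0.15, 16.9 ± 0.11 and 17.2 ± 0.26 in the same order. That of miR-215 was 27.04 ± 0.62, 25.5 ± 0.34, 26.4 ± 0.45, 26.5 ± 0.34 and 26.4 ± 0.34. Compared with the day 1 controls, average Ct in the day 30 controls stood above for the reference RNAs and below for the members, there by 0.64, 0.77 and 1.57 cycles, none of which passed in limma. Without a reference, within the first run period, the log2 difference on PTD 7 was 0.35 for miR-192, 0.18 for miR-194 and 0.56 for miR-215 (limma adjusted p = 0.323, 0.677 and 0.232), and on PTD 15 it was 0.07, -0.13 and 0.67 (adjusted p = 0.945, 0.893 and 0.226). With the median Ct of each array as the reference, PTD 7 gave 1.14, 0.97 and 1.35 (adjusted p = 0.0106, 0.0201 and 0.0109) and PTD 15 gave 0.86, 0.66 and 1.47, of which only that of miR-215 passed (adjusted p = 0.0150). By that reference 138 and 75 of the 376 assays were higher, and the median assay stood at 0.62 and 0.56. The difference of PTDs 7 and 15 from the day 1 controls thus passed or missed the threshold with the reference that was taken. On PTD 3, without a reference, Ct of miR-192 did not overlap the day 1 controls (17.1 against 17.6, exact permutation p = 0.0179). MiR-194 and miR-215 overlapped them (exact permutation p = 0.571 and 0.161), and overlap was not counted over all assays. Against all controls, Ct of miR-192, miR-194 and miR-215 on PTD 1 was higher by 0.52, 0.68 and 1.21 cycles (exact permutation p = 0.0960, 0.0442 and 0.0480). None of these passed in limma. Arrays of PTDs 3, 7 and 15 shared no run day with a control array, so run day and treatment cannot be told apart for them.

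**Figure D3:**
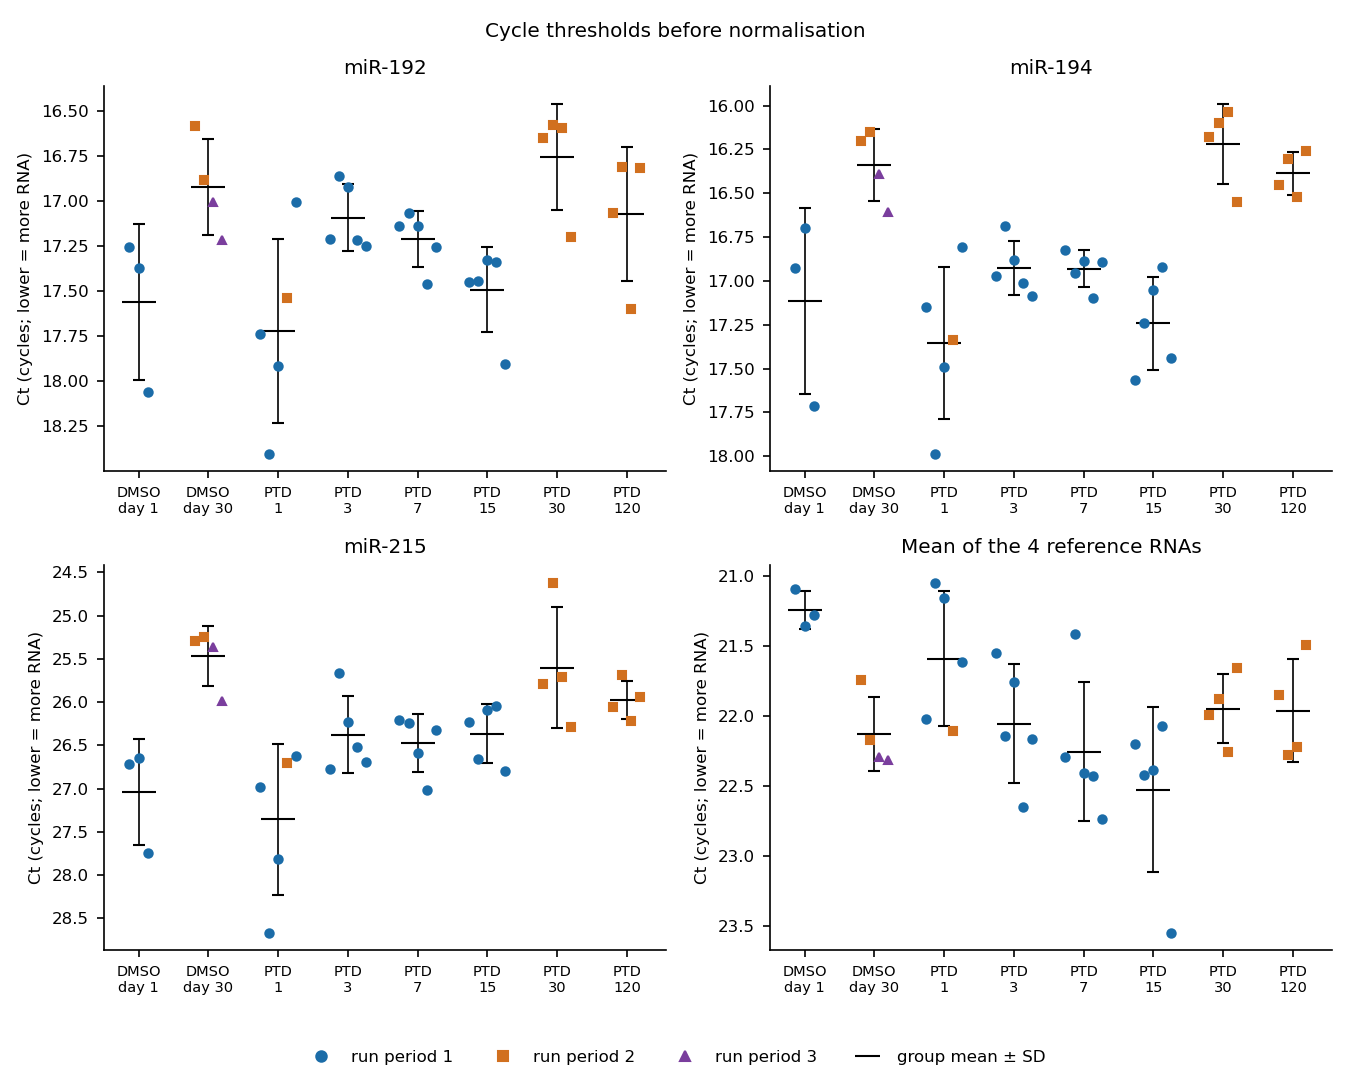
Ct before normalization of miR-192, miR-194 and miR-215 and the mean Ct of the 4 reference RNAs in each liver, with the axes turned so that more RNA is higher and each axis with its own range; bars are the group mean ± SD and colour and shape give the run period. The reference RNAs are at 21.1 to 21.4 in the day 1 controls and above 22 on average on PTDs 3, 7 and 15, while miR-215 spans 24.6 to 28.7, more than miR-192 (16.6 to 18.4) or miR-194 (16.04 to 17.98).

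MiR-34a, the p53 target that served as comparator, was a DEM on PTDs 1, 3, 7, 15 and 30, with a log2 fold change of 1.24, 2.51, 1.91, 2.78 and 1.98, and stood at 0.71 on PTD 120 (limma adjusted p = 0.446). After adjustment it passed on PTD 3 (adjusted p = 0.00149), PTD 15 (2.4e-05) and PTD 30 (0.0102), but not on PTD 1 (0.430) or PTD 7 (0.0796). Within the run period its log2 fold change was 1.14, 2.33, 1.72, 2.59 and 1.955 on PTDs 1, 3, 7, 15 and 30. There it passed on PTD 15 (adjusted p = 0.00223) and missed the threshold on PTD 3 (adjusted p = 0.0536), PTD 7 (0.120) and PTD 30 (0.307). On PTD 1 it did not pass either, and on PTDs 1 and 7 it was no longer a DEM. Its values overlapped those of the period's controls on PTD 7 but not on PTDs 1, 3, 15 and 30, the last against 2 controls. Its group means were -1.24 ± 0.43 (SD, n = 7) in the controls and 1.54 ± 0.20 (SD, n = 5) on PTD 15. On PTD 7 it was 1.15 to 1.58 in 4 mice and -2.51 in replicate 5, below every control, while miR-192 of that mouse, 5.48, was the highest of its group.

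Whether the members moved as miR-34a did was asked by taking miR-34a itself as the reference, so that the reference RNAs cancel. Relative to miR-34a, miR-192 fell by 1.93 on PTD 1, 2.11 on PTD 3 and 2.30 on PTD 15 on the log2 scale (limma adjusted p = 0.0116, 0.00215 and 0.00142). MiR-194 fell by 2.09, 2.47 and 2.57 (adjusted p = 0.0116, 0.00117 and 0.00124), and miR-215 fell by 2.62, 2.44 and 2.22 (adjusted p = 0.0116, 0.00469 and 0.00836). This is not particular to them, since the same was true of 73.9%, 96.5% and 93.3% of the other assays. On PTD 7 the values were -1.42, -1.66 and -1.74 and did not pass (20% of assays did); without replicate 5 they were -2.32, -2.59 and -2.69 (adjusted p = 0.00155, 0.00124 and 0.00371), and 353 of the 375 assays were lower. On PTD 30 they were -1.34, -1.33 and -1.24 (adjusted p = 0.0664, 0.0785 and 0.150, with 47.2% of assays lower). Leaving out replicate 3 of the day 1 controls brought all 3 past the threshold there (adjusted p = 0.0142, 0.0160 and 0.0331), and leaving out replicate 1 did so for miR-192 and miR-194 (adjusted p = 0.0332 and 0.0371). All 3 also passed there with a run period block (-1.99, -2.0 and -2.30, adjusted p = 0.00974, 0.0106 and 0.00974) and against the day 30 controls alone (-2.13, -2.18 and -2.43, adjusted p = 0.000889, 0.000945 and 0.000951). In these 4 fits 279, 285, 307 and 335 of the 375 assays were lower. On PTD 120 they were -0.38, -0.21 and -0.33, with 0% of assays passing. Against the day 1 controls alone the PTD 1 values were -0.87, -0.95 and -1.03 and did not pass, and of the values on PTDs 3 and 15 only those of miR-194 did (-1.33 and -1.44, adjusted p = 0.0435 and 0.0494), with 0, 270 and 238 of the 375 assays lower on PTDs 1, 3 and 15. The run period block also took miR-192 and miR-215 on PTD 3 (-1.05 and -0.86, adjusted p = 0.0603 and 0.178) and miR-215 on PTD 15 (-0.64, adjusted p = 0.302) below the threshold, where 293 and 255 of 375 were lower.

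From animal to animal no relation with miR-34a was found. After subtraction of the mean of each of the 8 groups, Pearson's r over the 35 livers was -0.04 for miR-192 (95% interval -0.40 to 0.34), -0.12 for miR-194 (-0.47 to 0.27) and -0.08 for miR-215 (-0.44 to 0.30), with p = 0.837, 0.524 and 0.633 by permutation within groups and an adjusted p of 0.977 for each over the 360 other assays with a Ct in every liver. Spearman's rho was 0.00, -0.11 and -0.07 (permutation p = 0.986, 0.560 and 0.703). Without the 2 livers farthest from the median of miR-34a, PTD 3 replicate 4 and PTD 7 replicate 5, r was 0.15, 0.01 and 0.09. Without PTD 7 replicate 5 alone r was 0.23, 0.12 and 0.15 (adjusted p = 0.646, 0.796 and 0.778). The relation with miR-34a passed for 0.278% of assays, in number 1, miR-423-5p at r = 0.72 (permutation adjusted p = 0.036; named after its value was seen); without those 2 livers it was at 0.57 and did not pass (adjusted p = 0.0730). For comparison, r with miR-34a was 0.34 for miR-34b-5p, 0.27 for miR-34c and 0.11 for miR-34b-3p, from the other p53-driven hairpins of the family (permutation p = 0.0133, 0.0297 and 0.407, adjusted p = 0.977 for each). Without the same 2 livers it was 0.74 for miR-34b-5p (permutation adjusted p = 0.0108), 0.50 for miR-34c (adjusted p = 0.156) and -0.08 for miR-34b-3p (adjusted p = 0.920), while the adjusted p of the members ran from 0.869 to 0.987. The number of assays positively related to miR-34a was 18 without those livers and 21 with the array median as the reference. With the array median miR-34b-5p was at 0.50 and miR-34c at 0.39 (permutation adjusted p = 0.0036 and 0.0461), miR-34b-3p was at 0.21 (adjusted p = 0.632), and the members were at 0.10, -0.05 and -0.04 (adjusted p = 0.840, 0.943 and 0.943). The intervals leave room for a moderate relation in either direction. No r is given within the 7 controls, since they fall into 2 sets of 3 and 4.

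The 3 miRNAs did follow each other. After the same subtraction r was 0.95 between miR-192 and miR-194 (0.89 to 0.98), 0.92 between miR-192 and miR-215 (0.83 to 0.96) and 0.89 between miR-194 and miR-215 (0.77 to 0.95), each with a permutation p of 1e-05, the smallest that 100000 permutations can give. Without the 2 livers farthest from the median of miR-192, PTD 1 replicate 2 and PTD 30 replicate 4, the first pair was at 0.92 and the second at 0.86. With the array median as the reference the 3 were 0.92, 0.87 and 0.85. Values on an array share their reference and their RNA input, and many other assays moved with them: 49.7% of assays were positively related to miR-192, 51.1% to miR-194 and 41.1% to miR-215 at an adjusted p under 0.05, and the median r was 0.41, 0.42 and 0.37. With the array median these were 109, 91 and 73 of the 360 assays, with a median r of 0.27, 0.23 and 0.21. Whether the assays of miR-192 and miR-215 read each other was not tested.

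**Figure D4:**
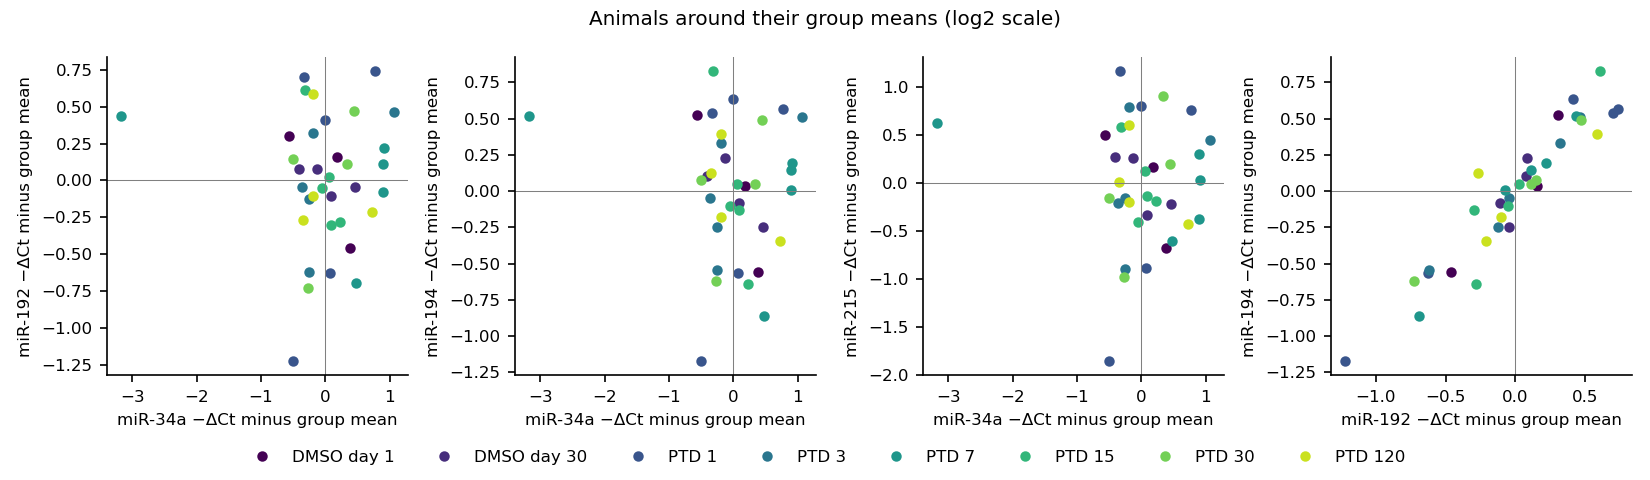
Each point is 1 liver, given as its -ΔCt minus the mean of its group (log2 scale): miR-192, miR-194 and miR-215 against miR-34a in the first 3 panels, and miR-194 against miR-192 in the last. The points show no slope against miR-34a (r = -0.04, -0.12 and -0.08, with 1 mouse of PTD 7 far to the left), whereas miR-194 rises with miR-192 (r = 0.95).

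Ranked among the 200 assays with a mean Ct of at most 30, the 5 most like miR-192 were miR-152 (r = 0.96), miR-98 (0.96), miR-16 (0.96), miR-203 (0.95) and miR-194 (0.95), with miR-215 in place 12. The 5 most like miR-194 were miR-203 (0.98), miR-16 (0.97), miR-10a (0.96), miR-100 (0.96) and miR-195 (0.95), with miR-192 in place 7 and miR-215 in place 25. The 5 most like miR-215 were miR-192 (0.92), miR-140 (0.91), miR-194 (0.89), miR-203 (0.88) and miR-16 (0.88). With the array median as the reference r with miR-215 was 0.90 for miR-140, 0.87 for miR-192 and 0.85 for miR-194. Of the hepatocyte markers, r with miR-192 was 0.91 for miR-148a (place 13) and 0.89 for miR-802 (place 21), whereas miR-122 was in place 115 at 0.53. For miR-122 replicate 1 of PTD 15 stood far from its group, at -ΔCt 3.29 against 7.60 or more. The r of miR-122 without that liver was not computed, so it is not set apart from the other markers.

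A difference between the clusters was looked for with miR-192 as the reference. It could be missed if the assays of miR-192 and miR-215 read each other, which was not tested. Relative to miR-192, miR-215 was at -0.69 on PTD 1 (95% interval -1.37 to -0.01, limma adjusted p = 0.706). On PTDs 3, 7, 15, 30 and 120 it was at -0.34, -0.32, 0.08, 0.10 and 0.04. MiR-194 was at -0.16, -0.36, -0.25, -0.28, 0.01 and 0.16 from PTD 1 to PTD 120. None of these 12 values passed an adjusted p under 0.05, although miR-215 on PTD 1 and miR-194 on PTD 3 had an unadjusted limma p of 0.0461 and 0.0446; over all assays the share was 0% on PTDs 1, 3, 30 and 120, 16% on PTD 7 and 6.67% on PTD 15. The value of miR-215 on PTD 7 turned with the controls: against the day 30 controls alone it was -0.72 and passed (limma adjusted p = 0.0347, as did 46 of the 375 assays, 30 of them lower), whereas the day 1 controls alone and a run period block each gave 0.21, with 0.19 on PTD 3.

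Between successive PTDs the largest steps were from PTD 1 to PTD 3, at 1.09 for miR-192, 0.89 for miR-194 and 1.44 for miR-215, with an adjusted p of 0.131, 0.171 and 0.136 in 1 limma fit of all groups (0.532% of assays passed). With the array median as the reference these steps were 1.02, 0.81 and 1.37 and passed (adjusted p = 0.0400, 0.0458 and 0.0400), as did those of 63 of the 376 assays, 50 of them higher. No later step of a member passed, while among all assays 11.7% did for the step to PTD 30 and 0% for the steps to PTDs 7, 15 and 120.

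A list of other miRNAs with a reported link to p53, which is not complete, held 11 names, all on the array: miR-34a, miR-34b-5p, miR-34b-3p, miR-34c, miR-107, miR-22, miR-15a, miR-16, miR-141, miR-429 and miR-200a. With the reference RNAs and all controls, those that passed belonged to the miR-34 family or were miR-107. With the array median as the reference, miR-34a, miR-22 and miR-15a also passed on PTD 7, where 107 of the 376 assays were higher. MiR-107 no longer passed on PTD 15 with the array median, nor against the day 30 controls alone. On PTD 30 miR-34a and miR-34b-5p no longer passed with the array median, where 0 of the 376 assays did. At an adjusted p under 0.05 in limma 0 of 11 were higher on PTD 1, 3 on PTD 3 (miR-34a, miR-34b-5p and miR-34c), 2 on PTD 7 (miR-34b-5p and miR-34c), 4 on PTD 15 (the same 3 and miR-107), 2 on PTD 30 (miR-34a and miR-34b-5p) and 0 on PTD 120; none was lower, and 0%, 0.798%, 7.45%, 12.2%, 0.532% and 0% of all assays passed. By the DEM rule 2 were higher on PTD 1, 3 each on PTDs 3, 7, 15 and 30, and 0 on PTD 120, all from the miR-34 family, with 1.33%, 2.13%, 9.84%, 11.4%, 1.6% and 1.33% of all assays. The median log2 fold change of the list from PTD 1 to PTD 120 was -0.09, 0.51, 0.34, 0.79, 0.55 and 0.40, beside -0.37, 0.02, 0.19, 0.36, 0.54 and 0.46 over all assays. Within the run period 5 of 11 passed on PTD 7 and 7 of 11 on PTD 15, where 40.7% and 47.9% of all assays were higher, and miR-15a, miR-16 and miR-22 were among them on both days. None of the list passed within the run period on PTDs 1, 3, 30 and 120 (limma). MiR-16, which the above ranking set close to all 3 members, was at -0.84 on PTD 1 and between -0.08 and 0.54 afterwards, and miR-15a, from a cluster with a copy of miR-16, at -0.18 and then between 0.39 and 0.84. The epithelial miRNAs miR-200a, miR-141 and miR-429 did not pass on any PTD (limma adjusted p from 0.259 to 0.918).

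Some cell type markers, though not all, moved where the members did. Of the 3 hepatocyte markers none passed on any PTD against all controls (limma). Within the first run period, where 40.7% of all assays were higher on PTD 7 and 47.9% on PTD 15, miR-148a and miR-802 were higher on both days, and so were both endothelial markers (miR-126-3p and miR-126-5p), 2 and then 3 of the 3 stromal markers, and 1 and then 2 of the 3 erythroid markers. Of the 5 blood and immune markers miR-142-5p was lower on PTD 7 and PTD 15 and miR-223 higher on PTD 15, and of the 4 biliary and other epithelial markers none passed. The mean -ΔCt of the hepatocyte markers ran from 2.64 to 3.59 in the day 1 controls, from 4.54 to 5.08 in the day 30 controls, from 2.30 to 3.91 on PTD 1 and from 3.67 to 5.07 on PTD 7. On PTD 15 miR-122 was at 3.29 in replicate 1 and at 7.60 or more in the others. Against all controls, miR-150 was a DEM on PTD 1 (lower), miR-142-3p on PTD 120 (higher) and the erythroid miR-144 and miR-451 on PTD 15 (higher), whereas no endothelial, stromal or epithelial marker was one on any PTD. Every marker had a Ct in every liver. The part of cell composition in the members' values was not tested.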

How the data were processed

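Small RNA of 35 livers was measured on 384-well SYBR Green real-time PCR arrays, 1 array per mouse. The authors deposited the Ct of each well, from SDS 2.3 with a fixed threshold and no normalization; this other unit is a cycle number, about 1 log2 unit each. Wells were named through the study's array list. The 15 undetermined miRNA wells, none of a member, were missing. ΔCt was taken against snoRNA251, snoRNA202, snoRNA142 and U6, as in the study, whose test was a t-test. Each PTD was fitted against the 7 controls, over all 376 miRNA assays, in limma 3.58.1 (R 4.3.3) with Benjamini-Hochberg adjustment; single values also had an exact permutation test, two-sided. Correlations used values centred on the 8 labelled groups, 100000 permutations within groups, and the 361 assays with a Ct in every liver. Scripts were tested on simulated data. The labels put 3 controls on day 1 and 4 on day 30, the study's methods 4 and 3; the labels were used. The members, the lists and the tests were chosen with earlier results of these data known. Genes named were the 3 members, 11 p53-linked miRNAs, the markers, and for each member the 5 assays with the highest centred r at a mean Ct of at most 30. MiR-423-5p was named outside this rule, after its value was seen. Number of mice and primer efficiency, not read depth, limit precision. Alternatives were the array median, subsets of the reference RNAs, either control set, run period, replicate number, the t-test and leaving out each mouse; those added after seeing the data were Ct without a reference, the array median within the run period, blocks in the relative fits, pooled centring of the controls, the array median for the steps between PTDs, other references and controls for the p53 list, and the comparison of the control sets.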

Additional observations from a re-analysis of the deposited data

Results flagged for a closer look

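In none of the 7 groups of 4 or 5 mice did a value of miR-192, miR-194 or miR-215 stand apart from its group by Dixon's ratio, which chance exceeds in about 1 in 20 groups. Among the 28 sets of values checked, the comparator miR-34a did so in 3. In replicate 5 of PTD 7 its -ΔCt was -2.51, against 1.15 to 1.58 in the other mice. In replicate 4 of PTD 3 it was 2.35, against 0.91 to 1.08. In replicate 4 of PTD 120 it was 0.20, against -0.87 to -0.71.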

How the results depend on the processing

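Values are log2 changes of miR-192, miR-194 and miR-215 in this order, unless one is named. Of 591 values under an alternative setting other than leaving out a mouse, 418 kept direction and side of the threshold; where a value below differs, the cause was not tested. With only the day 1 controls the changes were 0.19, 0.10 and 0.03 on PTD 1, and 1.36, 1.19 and 1.57 on PTD 7, 1.35, 1.15 and 1.95 on PTD 15, 1.51, 1.60 and 2.14 on PTD 30 and 1.20, 1.44 and 1.78 on PTD 120 all passed, so that each member passed on 4 PTDs instead of 0; on these days 153, 180, 184 and 137 of the 376 assays were higher. With only the day 30 controls they were -0.25, -0.67 and -0.98 on PTD 3, -0.16, -0.47 and -0.88 on PTD 7, -0.18, -0.51 and -0.50 on PTD 15, -0.02, -0.06 and -0.31 on PTD 30 and -0.32, -0.22 and -0.67 on PTD 120. The lowest of the 18 values was -2.43, for miR-215 on PTD 1, and none passed (limma, smallest adjusted p = 0.0592). On that day mean -ΔCt was 3.87, 4.24 and -5.77, against 5.21, 5.79 and -3.34 in the day 30 controls, and the median assay stood at -0.80. Within the run period 1.36, 1.19 and 1.57 (PTD 7) and 1.35, 1.15 and 1.95 (PTD 15) passed (2 PTDs each), miR-192 was 0.01 on PTD 1, and PTDs 30 and 120 gave -0.03, -0.05 and -0.34, and -0.34, -0.20 and -0.70. Run period as a block gave those same values on PTDs 7 to 120 and also brought miR-192 past the threshold on PTD 3 (1.28; 3, 2 and 2 PTDs; 16 of 376 assays higher). The array median brought miR-192 past it on PTD 7 (0.79, 1 PTD, with 107 of 376 assays higher) and turned miR-192 and miR-215 on PTD 120 (-0.09 and -0.04); within the run period it gave 1.14, 0.97 and 1.35 on PTD 7 and 1.47 for miR-215 on PTD 15 as passing (1, 1 and 2 PTDs), 0.00, -0.02 and -0.31 on PTD 30 and -0.32, -0.19 and -0.68 on PTD 120. Ct without a reference gave -0.26 and -0.23 for miR-194 and miR-215 on PTD 3, -0.01, -0.26 and -0.33 on PTD 7 and -0.30, -0.57 and -0.22 on PTD 15, and within the run period -0.13 for miR-194 on PTD 15, -0.02, -0.04 and -0.33 on PTD 30 and -0.34, -0.21 and -0.70 on PTD 120. For miR-194 and miR-215 on PTD 3, U6 alone gave -0.07 and -0.04, leaving out snoRNA142 -0.13 and -0.10, and the difference of the reverse transcription control wells as a covariate -0.09 and -0.11, with -0.07 and -0.30 on PTD 7 and -0.11 for miR-194 on PTD 15.

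Of 42 pairs of an ENU and a control mouse with the same number, 8 had correlated deviations over 0.1 (-0.362 to 0.481). These included all 4 pairs of PTD 3 with the day 30 controls (0.231 to 0.481), but none of PTD 3 with the day 1 controls, so over all controls the numbers were not taken to pair the mice. A replicate block turned miR-194 on PTD 3 (-0.02) and PTD 15 (-0.05), miR-215 on PTD 7 (-0.02) and miR-194 relative to miR-192 on PTD 30 (0.00), and brought the changes relative to miR-34a on PTD 7 past the threshold (-2.36, -2.64 and -2.72, with 352 of 375 assays lower).

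Relative to miR-34a, the day 1 controls alone took below the threshold -0.87, -0.95 and -1.03 on PTD 1, -1.05 and -0.86 for miR-192 and miR-215 on PTD 3, and -1.24 and -0.64 for them on PTD 15, and turned miR-215 on PTD 30 (0.35) and all 3 on PTD 120 (0.68, 0.92 and 1.26). The day 30 controls alone brought PTD 30 past it (-2.13, -2.18 and -2.43), as did the run period block (-1.99, -2.0 and -2.30), which took away miR-192 and miR-215 on PTD 3 (-1.05 and -0.86) and miR-215 on PTD 15 (-0.64). Relative to miR-192, miR-215 was 0.19 on PTD 3 and 0.21 on PTD 7 with the day 1 controls and with the run period block; the day 30 controls gave -0.72 on PTD 7, which passed, -0.32 on PTD 15, -0.30 on PTD 30 and -0.35 on PTD 120, and -0.05 for miR-194 on PTD 30; the block gave -0.31 and -0.36 on PTDs 30 and 120, and -0.02 for miR-194 on PTD 30.

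The day 30 controls exceeded the day 1 controls by 0.62, 0.75 and 1.55 with the array median and by 0.64, 0.77 and 1.57 without a reference, none of which passed. The array median also turned the step from PTD 15 to PTD 30 for miR-192 (-0.28) and miR-215 (-0.25) and brought the first step past the threshold (1.02, 0.81 and 1.37). The p53-linked miRNAs that passed were 5 on PTD 7 and 0 on PTD 30 with the array median, and 0, 5, 7, 5 and 1 on PTDs 3, 7, 15, 30 and 120 with the day 1 controls. The correlation of miR-192 with miR-34a was 0.10 with the array median, 0.04, 0.11 and 0.06 without snoRNA251, snoRNA202 and U6, 0.00 as Spearman's rho and 0.15 without the 2 extreme livers; those of miR-194 and miR-215 were 0.07 and 0.08 without snoRNA202 and 0.01 and 0.09 without those livers.

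Leaving out each mouse in turn, no member passed against all controls. The changes ranged from -0.21 to 0.20 (PTD 3), -0.01 to 0.46 (PTD 7) and -0.05 to 0.36 (PTD 15) for miR-194, and from -0.28 to 0.29 (PTD 3) and -0.18 to 0.39 (PTD 7) for miR-215. Relative to miR-34a they ranged from -2.32 to -1.13, -2.59 to -1.33 and -2.69 to -1.42 on PTD 7, from -1.66 to -1.12, -1.67 to -1.10 and -1.68 to -0.93 on PTD 30, and for miR-194 and miR-215 on PTD 120 from -0.56 to 0.14 and -0.77 to 0.05. Relative to miR-192 they ranged from -0.02 to 0.05 for miR-194 on PTD 30, and for miR-215 from -0.05 to 0.17, -0.17 to 0.20 and -0.08 to 0.14 on PTDs 15, 30 and 120. The correlations with miR-34a ranged from -0.13 to 0.23, -0.21 to 0.12 and -0.19 to 0.15.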
